A study of Mus musculus with 5 samples.

Results

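The pluripotency transcription factors described here were 10 genes: Pou5f1, Nanog, Zfp42, Esrrb, Klf2, Klf4, Klf5, Sall4, Tfcp2l1 and Zbtb16. They were chosen by name out of 24844 genes, as known factors of the pluripotent state or, for Zbtb16, of spermatogonial stem cells. They were measured by RNA-seq in 2 samples labelled neural stem cells (NSCs) and 3 labelled STO cells. The NSCs were C57BL/6 cells from the cortex of mouse embryos, grown as monolayers with EGF and bFGF and used at passages 5 to 8. STO cells are an immortal line of SIM mouse embryonic fibroblasts, selected for resistance to thioguanine and ouabain, that is often used as a feeder layer for stem cells; they were labelled C57BL/6, grown in serum without added growth factors and used after more than 30 passages. The labels name no transgene and no treatment in either group. Each cell type had its own medium, and the STO line carries whatever changes its immortal growth and resistance brought, so cell type, line, medium and passage cannot be told apart. The line is a single cell line, no source says whether replicates came from separate embryos or cultures, and the p-values therefore measure only the spread between these samples, which may be technical. Neither cell type is pluripotent, and no pluripotent sample was analysed here.

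Pou5f1 (Oct4) and Nanog, together with Sox2, are the core of the network that keeps embryonic stem cells pluripotent. Esrrb, an orphan nuclear receptor, the Krüppel-like zinc finger factors Klf2, Klf4 and Klf5, and the CP2-like factor Tfcp2l1 stand around that core, and several of them are switched on by LIF through STAT3. Zfp42 (Rex1) is a classic marker of the naive state, Sall4 is a zinc finger factor of embryonic stem cells and germ cells, and Zbtb16 (PLZF) is a BTB-zinc finger repressor that is needed for self-renewal of spermatogonial stem cells. Most of these factors also have uses outside pluripotency: Klf4 and Klf5 act in epithelia, Klf2 in endothelium and T cells, and Zbtb16 in limb, blood and brain.

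The levels were FPKM values, that is, fragments per length of transcript and per depth of the library, so they are scaled for both length and depth and can be set side by side for different genes. Their sum over all transcripts was not equal, at 442905 and 446393 in the NSC samples and 385485 to 399970 in the STO samples. Small differences between the cell types may hold part of this offset. Other scalings are given with the alternatives below, but the part of the offset in any single difference was not tested. Transcripts of a gene were summed, which brought 17 RefSeq transcripts to the 10 genes. The deposited confidence intervals implied 15223341 to 22271895 fragments per sample, and these implied fragments are given where they limit a value; they cover counting error only. Across genes with a mean of at least 1 FPKM over the 5 samples, the replicates of a cell type were correlated at 0.99387 to 0.9952 (Pearson's r of log2(FPKM + 1)). The labelled cell types were checked against their markers: all 7 NSC markers were lower in STO cells and all 8 fibroblast markers were higher (limma, adjusted p under 0.05). Of all 12278 genes tested, 43.7% were called lower and 41.9% higher in STO cells, so the levels of the markers say more than these counts. Sox2 was at 308 and 276 FPKM in the NSCs and was listed at 0 in the 3 STO samples, while Col1a2 was at 353 to 374 FPKM in STO cells and at most 0.00609 in NSCs. The NSC samples also held 83.4 and 88.3 FPKM of Mbp, a myelin gene of the oligodendrocyte lineage, and the summed level of the 3 oligodendrocyte markers was 114 and 117 FPKM in NSCs and 0.961 to 1.14 in STO cells. Gfap, an astrocyte gene that is among the 7 NSC markers listed here and that the study used as a negative control for NSCs, was at 15.9 and 16.9 FPKM in NSCs and at most 0.0163 in STO cells. Of the neuron markers 3 were tested and 2 were lower in STO cells, and the 4 summed to 17.8 and 16.3 FPKM in NSCs and 7.84 to 8.57 in STO cells. Nearly all of the STO sum was Tubb3, which was at 9.25 and 8.14 FPKM in NSCs and not past the threshold (limma adjusted p = 0.476). Dcx, Rbfox3 and Snap25 were each at most 0.00324 FPKM in STO cells. Markers of microglia, endothelium and epithelium summed to at most 0.503 FPKM per list in every sample, and Krt18 was listed at 0 in all 5. The part of the oligodendrocyte, astrocyte and neuron RNA in the results below was not tested. In bulk RNA, fewer cells of a type and less RNA per cell cannot be told apart.

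The 10 factors fell into several patterns. Klf4, Klf5 and Klf2 were present in both cell types and much higher in STO cells. Zbtb16 and Esrrb were found at about 1 to 2 FPKM or just under in NSCs and were at or next to 0 in STO cells. Tfcp2l1 and Nanog had traces in both. Pou5f1, Zfp42 and Sall4 were listed at 0 in all 5 samples.

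**Figure D1:**
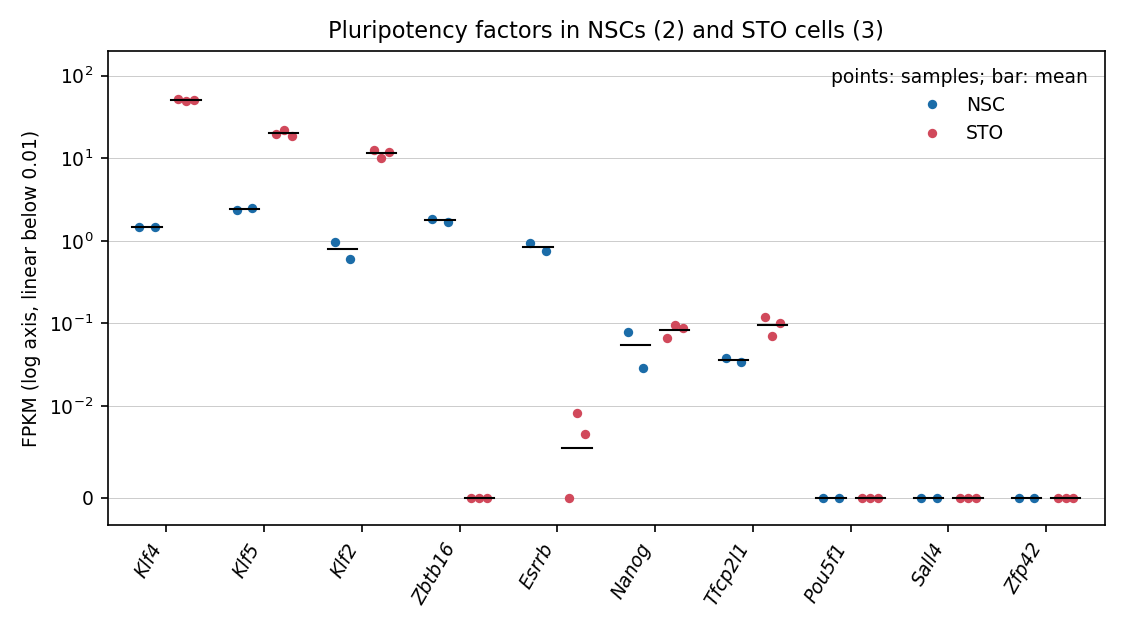
FPKM of the 10 pluripotency transcription factors in each sample, on a log axis that is linear below 0.01; points are the 2 NSC and 3 STO samples and black bars are group means. Klf4, Klf5 and Klf2 sit far higher in STO cells, Zbtb16 and Esrrb higher in NSCs, and Pou5f1, Sall4 and Zfp42 at 0 in every sample.

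Only genes with a mean of at least 1 FPKM in either cell type were tested, and 4 of the 10 passed that filter: Klf2, Klf4, Klf5 and Zbtb16. Klf4 and Klf5 passed in both cell types, but Klf2 passed only through STO cells and Zbtb16 only through NSCs. For these genes the filter itself leans towards a difference, so their p-values add no support beyond the values. The same holds for listed genes with a mean under 1 FPKM in 1 cell type. The test was limma on log2(FPKM + 1) with Benjamini-Hochberg adjustment over all 12278 genes tested, at a threshold of 0.05. Of these genes 41.9% were called higher and 43.7% lower in STO cells, so a call by itself says little about a gene in this comparison. The same shares are the background for the counts of called genes in the marker lists above and in the lists below. Of the 4 factors tested, 3 were called higher and 1 lower, a number too small to set apart from that background, and in 6 of all 10 factors the NSC and STO values did not overlap, against 55.8% of all 24844 genes. Of the genes above 0 in any sample, 78.6% did not overlap, and 7 of the factors were among these genes. By size, the change of Klf4 was larger than that of 96.5% of the genes tested, that of Klf2 larger than 90.3%, that of Klf5 larger than 88.8% and that of Zbtb16 larger than 75.3%. The median difference of all genes tested was -0.023.

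Klf4, which is best known as a reprogramming factor and otherwise helps cells leave the cell cycle, had the highest level of any member. It was at 1.45 and 1.47 FPKM in NSCs, from 139 and 154 implied fragments. In STO cells it was at 51.8, 48.9 and 51.1 FPKM, from 3558, 3830 and 5299 implied fragments. The groups were far apart and the replicates of each lay close together, with means of 1.46 ± 0.0116 (SD, n = 2) and 50.6 ± 1.53 (SD, n = 3). The mean was 34.7-fold higher in STO cells, and the ratios of single STO to single NSC samples ran from 33.3 to 35.7. The difference in log2(FPKM + 1) was 4.39 (SE 0.052, limma adjusted p = 7.15e-09). By its level Klf4 ranked 10940th of all genes in NSCs and 1537th in STO cells.

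Klf5, a promoter of proliferation in epithelial crypts and in the early blastocyst, was next. It was at 2.38 and 2.52 FPKM in NSCs and at 19.4, 21.8 and 18.6 FPKM in STO cells. Every STO sample was above every NSC sample, and the means of 2.45 ± 0.103 (SD, n = 2) and 19.9 ± 1.65 (SD, n = 3) differed 8.14-fold, with ratios of single samples from 7.38 to 9.17. The difference in log2(FPKM + 1) was 2.60 (SE 0.078, limma adjusted p = 2.97e-07). Klf5 was thus the highest of the 10 factors in NSCs and the second highest in STO cells.

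Klf2, known for quiescence in T cells and for the response of endothelium to flow, was the least even of the 3. It was at 0.963 and 0.607 FPKM in NSCs, from only 53.9 and 37.6 implied fragments, and at 12.6, 9.95 and 11.9 FPKM in STO cells. The NSC replicates differed more from each other than those of Klf4 or Klf5, yet both lay far below the STO samples. The mean was 14.6-fold higher in STO cells, and because of the uneven NSC values the ratios of single samples spanned 10.3 to 20.7. The difference in log2(FPKM + 1) was 2.81 (SE 0.124, limma adjusted p = 1.93e-06). That scale compresses low values, and with a pseudocount of 0.1 in place of 1 the differences of Klf2 and Klf4 were 3.73 and 5.02.

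The order of the 3 Krüppel-like factors therefore differed between the cell types. In NSCs it was Klf5, Klf4, Klf2, and in STO cells it was Klf4, Klf5, Klf2, with no overlap between neighbours in either order. Summed, the 3 genes came to 4.79 and 4.60 FPKM in NSCs and to 83.8, 80.6 and 81.7 FPKM in STO cells.

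The sequence around the start sites also differed among the members, and its relation to their levels was not tested. A promoter window of 250 bases before and 50 after the start was held by RefSeq for 7 of the 10 genes, in 10 windows, and each matched mm9 exactly at 1 place on its chromosome. The upstream 250 bases of Klf4 and Klf2, which were high together in STO cells, are printed with those of the Esrrb start that carried its signal in NSCs and of the longer Pou5f1 transcript, which was listed at 0 everywhere. They run 5′ to 3′ on the strand of the gene up to the base before the start, in mm9, and capitals mark CpG dinucleotides, the sites of DNA methylation in mammals.
Klf4 (minus strand, chr4:55545348-55545597): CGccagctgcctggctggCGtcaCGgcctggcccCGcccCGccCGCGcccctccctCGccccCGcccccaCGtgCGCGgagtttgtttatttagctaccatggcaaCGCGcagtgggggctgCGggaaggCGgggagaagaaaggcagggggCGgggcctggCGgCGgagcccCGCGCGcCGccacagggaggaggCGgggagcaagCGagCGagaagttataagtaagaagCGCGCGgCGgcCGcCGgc
Klf2 (plus strand, chr8:74842711-74842960): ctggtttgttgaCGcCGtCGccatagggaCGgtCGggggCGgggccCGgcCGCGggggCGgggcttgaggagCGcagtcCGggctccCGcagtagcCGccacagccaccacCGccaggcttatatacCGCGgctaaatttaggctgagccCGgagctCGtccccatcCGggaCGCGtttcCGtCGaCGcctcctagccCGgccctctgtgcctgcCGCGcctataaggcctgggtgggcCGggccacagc
Esrrb (plus strand, chr12:87762344-87762593): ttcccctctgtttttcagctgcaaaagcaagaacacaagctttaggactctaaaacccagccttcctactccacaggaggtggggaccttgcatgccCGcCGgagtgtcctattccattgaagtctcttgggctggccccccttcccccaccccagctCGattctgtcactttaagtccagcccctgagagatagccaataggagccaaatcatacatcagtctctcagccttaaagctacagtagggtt
Pou5f1 (plus strand, chr17:35642727-35642976): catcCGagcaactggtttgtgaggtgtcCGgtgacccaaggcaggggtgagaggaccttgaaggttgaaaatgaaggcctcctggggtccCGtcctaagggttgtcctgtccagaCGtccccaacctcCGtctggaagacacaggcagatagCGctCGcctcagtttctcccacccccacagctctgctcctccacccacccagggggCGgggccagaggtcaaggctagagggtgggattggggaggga
Klf4 held 32 CpG dinucleotides in these 250 bases and Klf2 held 29, against 8 for Pou5f1 and 3 for Esrrb.

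Over the whole window, the CpG count divided by that expected from the C and G content was 0.974 for Klf4 and 0.889 for Klf2, higher than 92.6% and 86.4% of the 32851 windows in the RefSeq table. Tfcp2l1 followed with 0.656. The windows of Zfp42 (0.441), Pou5f1 (0.374 and 0.388), Esrrb (0.318 at the start with signal and 0.266 at the other) and Nanog (0.192 and 0.181) all lay below 0.6, a usual limit for a CpG island. Over all windows the median was 0.384 and 35.8% were at or above 0.6. Genes with such a window were more often present in either cell type: 81.1% of 9283 genes at or above 0.6 had a mean of at least 1 FPKM in NSCs and 76.0% in STO cells, against 17.9% and 17.3% of 9104 genes below it. The members were not on one side of this split, since Tfcp2l1 had a window above 0.6 and a level near 0. Klf5, Sall4 and Zbtb16 had no entry in the table.

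Short motifs were searched in the same 300-base windows on both strands, with matches allowed to overlap. CCGCCC, the core of the GC box bound by Sp and Krüppel-like factors, was found 4 times at Klf4, 2 times at Klf2, 2 times at Zfp42 and 1 time at the longer Pou5f1 transcript, and 35.7% of all windows held it. CACCC, the short form of the Krüppel-like site, was found in all member windows but that of Klf4, and in 57.5% of all windows. The octamer ATGCAAAT was found 1 time, at Zfp42, and in 1.74% of all windows. TATAAA was found 1 time, at Tfcp2l1, and in 13.6% of all windows. AAGGTCA, the site of ESRRB, and TTCCNGGAA, the STAT site, were found in no member window, and in 4.72% and 1.15% of all windows. At such shares 10 windows are too few to show a lack of either site. A match is a stretch of letters and not a measured binding site.

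**Figure D2:**
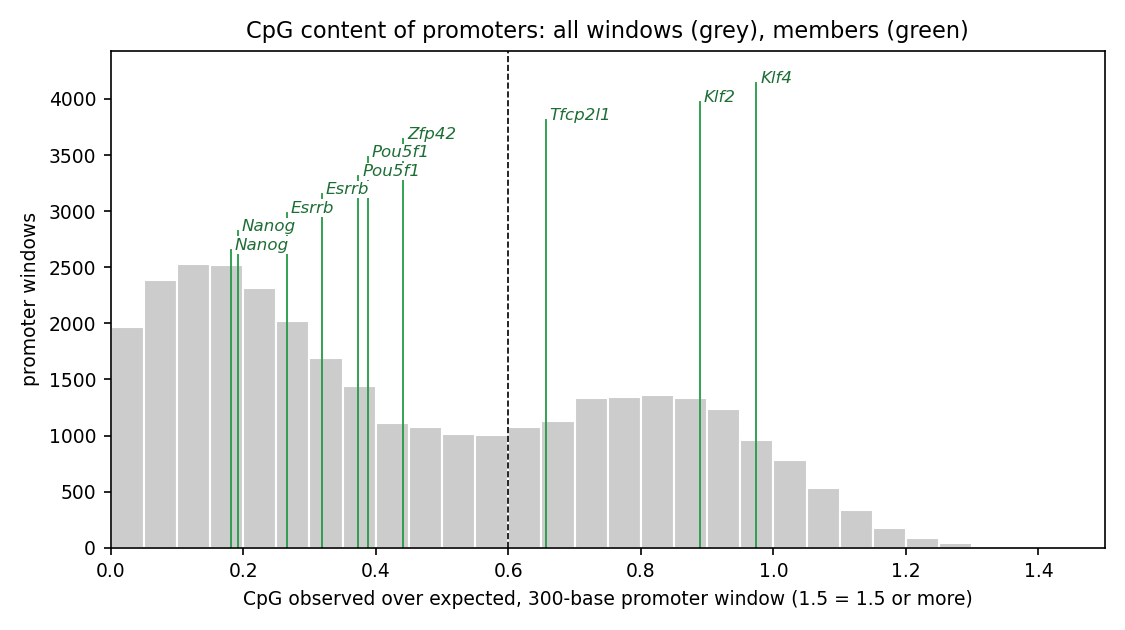
Number of promoter windows (vertical axis) by the ratio of observed to expected CpG in 300 bases (horizontal axis) for all 32851 windows in grey, with the 10 windows of 7 members as green lines and the limit of 0.6 as a dashed line. Klf4 and Klf2 lie in the CpG-rich mode, Tfcp2l1 just above the limit, and the windows of Zfp42, Pou5f1, Esrrb and Nanog below it.

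Zbtb16 was the member with the clearest level in NSCs only. It was at 1.85 and 1.68 FPKM there, from 293 and 290 implied fragments, and was listed at 0 in STO replicates 1, 2 and 3. The NSC mean was 1.76 ± 0.118 (SD, n = 2); no fold is given against a group listed at 0. The difference in log2(FPKM + 1) was -1.47 (SE 0.045, limma adjusted p = 3.20e-07), and its size hangs on the pseudocount, since it was -4.22 with a pseudocount of 0.1. The NSC level ranked 10675th of all genes.

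Esrrb had a similar shape at a lower level. It was at 0.931 and 0.753 FPKM in NSCs, from 115 and 102 implied fragments, and at 0, 0.00921 and 0.00693 FPKM in the STO samples. The STO values above 0 had an implied count of 0.49, which shows that the conversion is coarse at such low counts. With a mean under 1 FPKM in both cell types Esrrb did not pass the filter. When no filter was used, 33.5% of 17646 genes were called higher and 37.1% lower in STO cells, and Esrrb was among the lower ones with a difference of -0.87 (SE 0.045, limma adjusted p = 2.34e-05). All of the Esrrb signal was assigned to NM_011934, whose start lies at position 87762594 of chromosome 12, while NM_001159500, which starts at 87702067, was listed at 0 in all 5 samples.

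Tfcp2l1, which keeps embryonic stem cells in self-renewal and also serves the kidney collecting duct, was barely detected. It was at 0.0377 and 0.0344 FPKM in NSCs, from 11.0 implied fragments in each, and at 0.120, 0.0709 and 0.100 FPKM in STO cells, from 17.0 to 31.9. The groups did not overlap and the mean was 2.69-fold higher in STO cells, but at these levels the gene was under the filter. Without the filter the difference was 0.08 on the log2(FPKM + 1) scale (limma adjusted p = 0.0268).

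Nanog was at 0.0797 and 0.0291 FPKM in NSCs and at 0.0667, 0.0970 and 0.0875 FPKM in STO cells. The groups overlapped, and the values rested on 1.31 to 4.87 implied fragments per sample, so no difference was detectable at this depth (without the filter, 0.04 with a 95% interval from -0.03 to 0.11, limma adjusted p = 0.252). The fragments were all assigned to NM_001289831, the transcript with the most upstream of the Nanog starts in these files, and the other 3 transcripts were listed at 0. Nanog has retrocopies elsewhere in the mouse genome, and how the authors' counting shared reads between copies is not given in the sources used here.

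Pou5f1, Zfp42 and Sall4 were listed at 0 in both NSC and all 3 STO samples, for each of their 2, 1 and 3 transcripts. A 0 in such files can also be a failed estimate. Transcripts whose estimate was marked as not OK numbered 8 and 20 in the NSC samples. In STO replicates 1, 2 and 3 they numbered 0, 4 and 13, so no 0 in STO replicate 1 had that mark. Whether transcripts of these 3 genes had it in the other samples was not tested. None of 8 genes used by every cell was listed at 0 in any sample (4 were higher in STO cells, 2 lower and 2 not past the threshold). These 8 genes were at 11.9 FPKM or more, so they cannot decide this for genes listed at 0. The Sall4 locus overlaps the lincRNA Gm14261 in the GENCODE annotation of mm9. Genes next to 2 of these loci had clear levels: Tcf19, 1.96 kb from Pou5f1, was at 18.5 and 18.9 FPKM in NSCs and 60.7 to 65.6 in STO cells, and Atp9a, 6.20 kb from Sall4, was at 24.6 and 23.1 FPKM in NSCs and at most 0.011 in STO cells.

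Set out by level, the order in NSCs was Klf5, Zbtb16, Klf4, then Esrrb and Klf2, whose samples overlapped, then Nanog and Tfcp2l1, whose samples also overlapped, and last the 3 genes at 0. In STO cells it was Klf4, Klf5, Klf2, then Tfcp2l1 and Nanog, which overlapped, then Esrrb, and last Zbtb16, Pou5f1, Zfp42 and Sall4 at 0. In mm9 the loci were chr4:55540009-55545347 for Klf4, chr8:74842961-74845553 for Klf2, chr14:99697910-99712628 for Klf5, chr9:48462402-48644050 for Zbtb16, chr12:87702067-87862578 for Esrrb, chr1:120524522-120581745 for Tfcp2l1, chr6:122657507-122664651 for Nanog, chr17:35642977-35647722 for Pou5f1, chr8:44380421-44392363 for Zfp42 and chr2:168573832-168592701 for Sall4. All values are sums over whole transcripts, and no exon or UTR was measured apart.

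Klf2, Klf4 and Klf5 belong to a family of 17 Krüppel-like factors that share a DNA-binding domain of C2H2 zinc fingers, so the family was examined for how far the rise in STO cells was general. Of 13 KLF genes tested, 7 were higher in STO cells, 5 were lower and 1 was not past the threshold; Klf1, Klf8, Klf14 and Klf17 were not tested. Without Klf2, Klf4 and Klf5, 4 of 10 were higher and 5 lower, with a median difference of -0.19. Klf4, Klf2 and Klf5 showed the 3 largest rises, ahead of Klf6 (2.00, adjusted p = 1.01e-07), Klf11 (1.00), Klf3 (0.72) and Klf16 (0.28). The lower genes were Klf12 (-2.77, adjusted p = 4.02e-08), Klf10 (-2.51), Klf13 (-1.53), Klf15 (-1.28) and Klf7 (-0.29), and Klf9 was at -0.09 (adjusted p = 0.351; all limma on log2(FPKM + 1)).

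**Figure D3:**
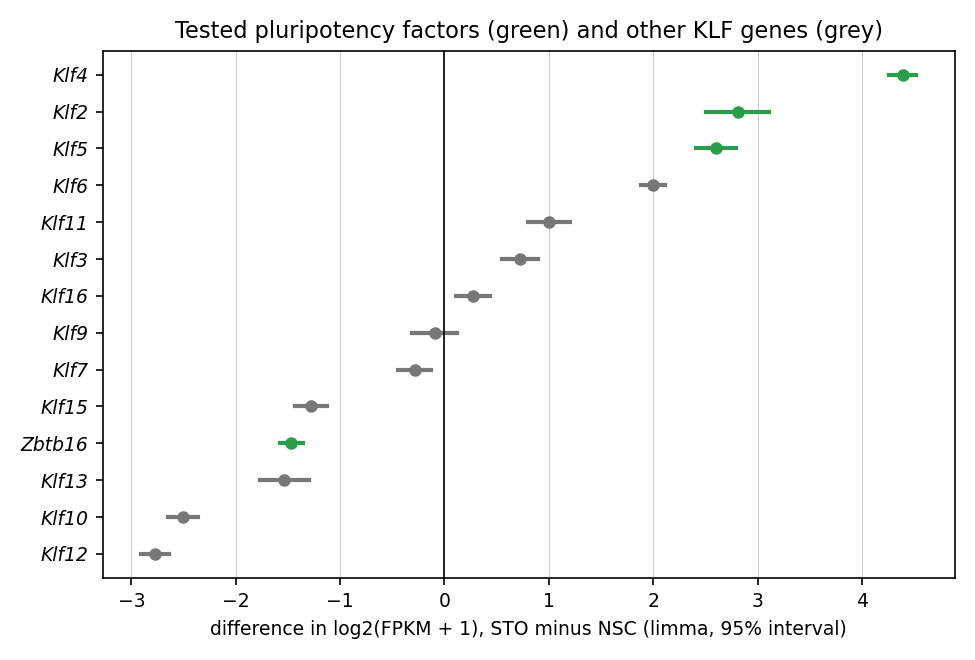
Difference in log2(FPKM + 1), STO minus NSC, with its 95% interval from limma for the 13 KLF genes tested and Zbtb16; pluripotency factors are green and the other KLF genes grey. Klf4, Klf2 and Klf5 lie at the upper end from 2.60 to 4.39, and Zbtb16 lies among the KLF genes that were lower in STO cells.

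By level, too, the family had a different leader in each cell type. Klf10, a gene induced by TGF-beta, was the highest in NSCs at 59.1 and 64.0 FPKM, and Klf6, an early response gene, was the highest in STO cells at 88.5 to 90.4 FPKM. Klf4 moved from 11th of the family in both NSC samples to the third in all STO samples. The summed FPKM of the 14 other KLF genes was nearly level, at 221 and 224 in NSCs and 215 to 224 in STO cells, with overlap between the groups. The sum over the whole family was 227 ± 2.31 (SD, n = 2) in NSCs and 302 ± 3.88 (SD, n = 3) in STO cells. Klf2, Klf4 and Klf5 made up 2.07% ± 0.081 (SD, n = 2) of it in NSCs and 27.2% ± 0.628 (SD, n = 3) in STO cells. These shares are descriptions and were not tested.

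**Figure D4:**
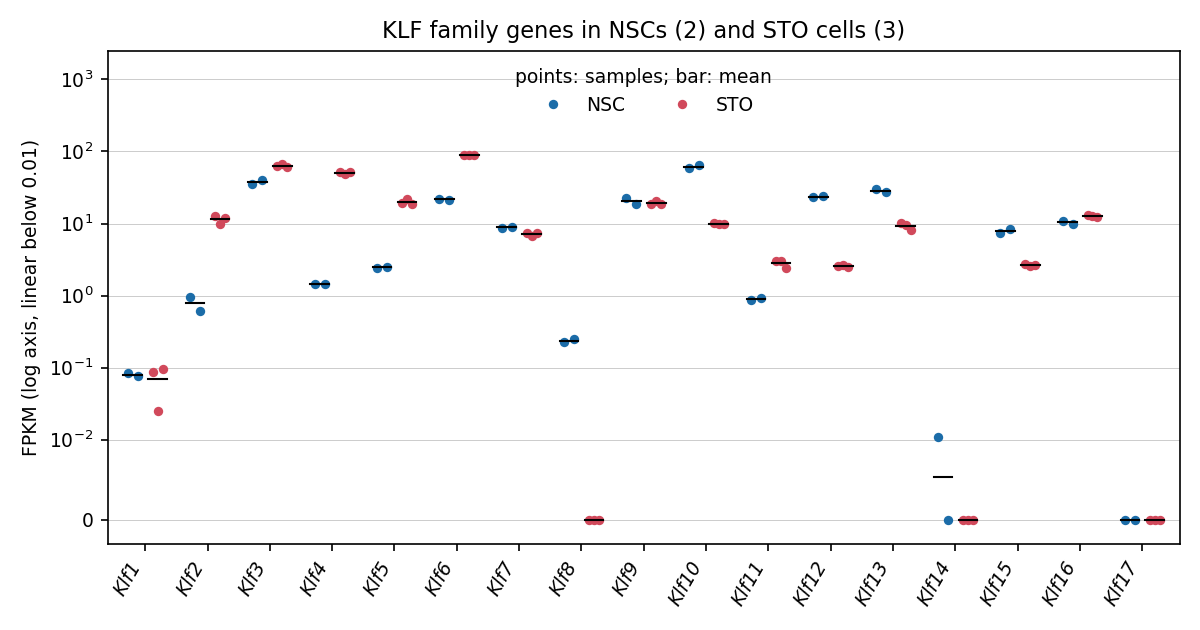
FPKM of the 17 KLF genes in each of the 2 NSC and 3 STO samples, on a log axis that is linear below 0.01; black bars are group means. Klf2, Klf4, Klf5 and Klf6 are higher in STO cells, Klf10, Klf12, Klf13 and Klf15 are higher in NSCs, and Klf17 is at 0 in every sample.

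The other genes of the pluripotent state were looked at to place the members. In a list of 27 pluripotency-associated genes only 3 reached a mean of 1 FPKM in either cell type, and 7 were listed at 0 in all 5 samples. Tbx3, a T-box factor that in embryonic stem cells acts downstream of LIF beside Klf4, was listed at 0 in both NSC samples and was at 7.38, 7.67 and 6.77 FPKM in STO cells (difference 3.05). Sox2 and Gbx2 were lower in STO cells: Gbx2 was at 1.85 and 2.24 FPKM in NSCs and listed at 0 in STO cells (difference -1.60), and Sox2, the partner of Pou5f1, is a defining gene of NSCs as well. The remaining 24 genes, among them Dppa2, Dppa4, Utf1, Lin28a, Fgf4 and Nr0b1, were at most 0.640 FPKM in any sample.

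The LIF and STAT3 pathway, which maintains Klf4 and Tfcp2l1 in mouse embryonic stem cells, was present in both cell types. All 9 of its genes were tested, with 7 higher in STO cells, 1 lower and 1 not past the threshold, and the median difference was 1.51 against -0.023 for all genes tested. Over all genes tested, 41.9% were called higher and 43.7% lower, and the 9 genes were chosen with earlier results known. The ligand Lif was at 1.52 and 1.10 FPKM in NSCs and at 14.6, 13.1 and 13.0 FPKM in STO cells (difference 2.66). Among the receptors, the shared subunit Il6st (gp130) was at 17.6 and 17.8 FPKM in NSCs and 123 to 131 in STO cells (2.77), while the LIF-specific subunit Lifr was at 5.46 and 5.63 FPKM in NSCs and 4.26 to 6.04 in STO cells (-0.04, limma adjusted p = 0.814). The kinase gene Jak1 was higher in STO cells (2.51), Jak2 slightly so (0.21), and Stat3 itself was lower (-0.29), with 76.5 and 73.0 FPKM in NSCs and 60.7 to 61.9 in STO cells. Of the known targets of STAT3, Socs3 was at 5.89 and 6.25 FPKM in NSCs and 54.0 to 59.9 in STO cells (3.02), and Pim1 was also higher (1.51). Whether Klf4, Klf5 or Klf2 depended on this pathway in STO cells was not tested.

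**Figure D5:**
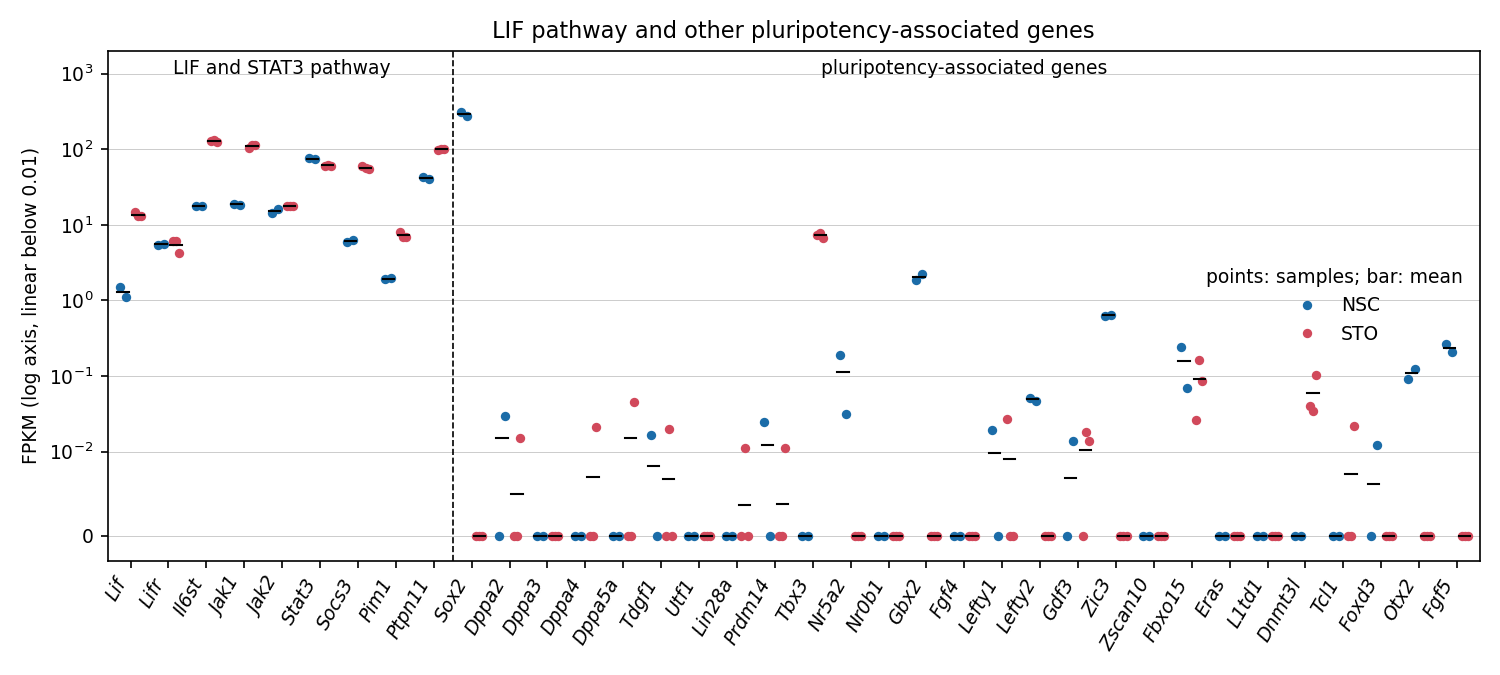
FPKM of the 9 LIF and STAT3 pathway genes (left of the dashed line) and of 27 pluripotency-associated genes (right) in each of the 2 NSC and 3 STO samples, on a log axis that is linear below 0.01; black bars are group means. Pathway genes are all above 1 FPKM, whereas among the pluripotency-associated genes only Sox2, Tbx3 and Gbx2 reach a group mean of 1 FPKM.

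The partners through which these factors act were widely present. All 16 corepressor genes of Sall4 and Zbtb16, among them NuRD, SIN3 and cullin genes, were at 1 FPKM or more in every sample, including the STO samples in which both factors were listed at 0. Of these 5 were higher in STO cells, 6 were lower and 5 were not past the threshold, with a median of -0.08. The 3 largest rises were in Cul3 (0.96), Mta2 (0.82) and Rbbp7 (0.73), and the 2 largest falls in Rbbp4 (-0.71) and Hdac2 (-0.60). Of 19 broad cofactors of pluripotency, 11 were higher, 5 lower and 3 not past the threshold, with a median of 0.18. The largest fall was in Tet1, a 5-methylcytosine oxidase that binds Nanog, which was at 4.15 and 4.48 FPKM in NSCs and 0.557 to 0.689 in STO cells (-1.70), and the largest rise was in Rif1 (1.27).

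Relatives of the other members were compared in the same way, and several were far above the member itself. Among 24 paralogs 18 were tested, with 8 higher in STO cells, 9 lower and 1 not past the threshold, and the median was -0.20. In place of Sall4, the NSCs had Sall3 at 52.0 and 57.9 FPKM, Sall2 at 36.9 and 38.9 and Sall1 at 9.16 and 9.15, and STO cells had Sall2 at 8.91 to 9.48, with Sall1 and Sall3 listed at 0. Beside Esrrb, the related Esrra was at 29.0 and 26.2 FPKM in NSCs and 13.9 to 19.7 in STO cells (-0.70), and Esrrg was at 1.35 and 1.58 in NSCs and at most 0.0171 in STO cells (-1.29), so that all 3 genes of that receptor family were lower in STO cells, Esrrb by the fit without a filter. Beside Tfcp2l1, Ubp1 was at 11.5 and 13.6 FPKM in NSCs and 31.5 to 34.0 in STO cells (1.33) and Tfcp2 was higher by 0.44. Beside Zfp42, Yy2 was at 0.987 and 0.992 FPKM in NSCs and 6.10 to 6.65 in STO cells (1.89), and Yy1, the parent gene of that family, was higher by 0.34. Of the relatives of Pou5f1, Pou6f1 was at 15.4 and 14.1 FPKM in NSCs and 3.69 to 4.05 in STO cells (-1.71). Pou2f1 was higher by 0.49, and Pou2f2 and Pou5f2 did not pass the filter. Zbtb7a (1.11) and Zbtb46 (1.21), which like Zbtb16 join a BTB domain to zinc fingers, were higher in STO cells, as was Zbtb20 (0.64), while Bcl6b (-1.03), Zbtb17 (-0.83) and Bcl6 (-0.31), of the same build, were lower like Zbtb16, and Zbtb7b was at -0.10 and not past the threshold.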

How the data were processed

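Stranded mRNA libraries of total RNA were sequenced from both ends. The authors trimmed the reads, aligned them to mm9 with Hisat2 and deposited FPKM values from Cufflinks 2.2.1, per RefSeq transcript, with confidence bounds in FPKM; the Cufflinks strand setting is not given in the sources used here. Depth was divided out by the authors, and no read counts were used.

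Samples were grouped by their labels. Of 40201 transcripts, 99.4% were matched to symbols through a RefSeq table for GRCm38.p6, and the FPKM values were summed per symbol. Transcripts without a symbol were kept under their own identifiers and counted as genes. Implied fragments took the distance from a value to its upper bound as 2 SD of a Poisson count, which is coarse for counts of a few fragments. STO cells were compared with NSCs on log2(FPKM + 1), for genes with a mean of at least 1 FPKM in either cell type. R 4.3.3 and limma 3.58.1 were used (moderated variances with a mean trend), the adjustment was that of Benjamini and Hochberg, and 0.05 was the threshold; the script was tested on simulated data. Fold changes on this scale understate the change of low genes. Promoter windows came from the RefSeq table of that assembly and were located in mm9 by exact match. Other steps used Python 3.11.15, pandas 2.3.3 and numpy 2.4.6, and figures matplotlib 3.10.9.

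The members and the 15 gene lists were chosen with earlier results of these data known. Named genes were all members, all tested KLF genes, markers and genes among each list's 6 largest rises and 6 largest falls past the threshold. Some genes within these ranks are not named. Others are named with their values for their role or position and were chosen after their values were seen. The 13 alternatives changed the pseudocount, filter, scaling, trend, summing, replicate block or samples.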

Additional observations from a re-analysis of the deposited data

How the results depend on the processing

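All 90 values recomputed under the 13 alternatives kept their direction and their side of the threshold or, for counts, stayed within 1.5 times the reported value. Under the 8 settings other than leaving out 1 sample, the replicate block included, the difference ran from 2.77 to 3.73 for Klf2, from 4.35 to 5.02 for Klf4, from 2.55 to 2.97 for Klf5 and from -4.22 to -1.14 for Zbtb16, which was not tested at a mean of at least 5 FPKM. Each time 1 sample was left out, it ran from 2.66 to 2.95, from 4.37 to 4.41, from 2.54 to 2.64 and from -1.51 to -1.42. The adjusted p-values (limma) over all alternatives reached at most 0.00115 for Klf2, 2.71e-05 for Klf4, 0.000577 for Klf5 and 1.46e-05 for Zbtb16. Between 3 and 6 members were past the threshold, 6 without a filter, where Esrrb and Tfcp2l1 joined. Genes called higher numbered 4316 to 5912 and lower 4247 to 6551. The balance between them moved with the scaling. Quantile normalization gave 5444 higher and 5050 lower with a median difference of 0.038. Median-of-ratios scaling gave 4935 and 5631 with a median of -0.074, against 5147, 5370 and -0.023 in the main fit. STO replicate 3 has no NSC sample of its number, so the replicate block takes it out of the contrast and changes 2 choices at once; its differences of the 4 factors equal those without that replicate. With the replicate block, 4988 genes were higher and 5250 lower, and Klf2 was at 2.78, Klf4 at 4.38, Klf5 at 2.64 and Zbtb16 at -1.47. The deviations of same-numbered samples were correlated at 0.0057 and 0.0635 and of others from -0.0635 to 0.0549, so the numbers were not shown to pair the samples. The values of Nanog, Tfcp2l1 and of Esrrb in STO cells are limited by counts of under 32 implied fragments.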

Other observations

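Of 17 spermatogonial genes, a list of genes that share a setting with Zbtb16, 6 were tested, with 2 higher in STO cells and 4 lower (limma, adjusted p under 0.05), and their median difference was -0.83. Etv5, a factor downstream of GDNF, was at 98.9 and 104 FPKM in NSCs and 6.78 to 8.40 in STO cells, and Gfra1, the GDNF co-receptor, was at 10.7 and 10.6 FPKM in NSCs and 6.37 to 6.76 in STO cells. Kit, the receptor of differentiating spermatogonia, was at 4.35 and 4.47 FPKM in NSCs and at most 0.0172 in STO cells, and Bcl6b was at 0.993 and 1.11 in NSCs and at most 0.0113 in STO cells. Id4 was higher in STO cells, at 9.67 to 10.7 FPKM against 1.44 and 1.01 in NSCs, and so was Ifitm3 (fragilis), at 446 to 490 FPKM against 47.7 and 50.7. The germ cell genes Ddx4, Dazl and Nanos2 were at most 0.121 FPKM in any sample, and Stra8 was listed at 0 in all 5.

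Of the 20 genes nearest to the members on either side, 14 had a mean of at least 1 FPKM in either cell type, against 12278 of all 24844 genes. That number of neighbours is too small to set apart from the background. Slc2a3, a glucose transporter gene 13.2 kb from Nanog, was at 47.7 and 41.7 FPKM in NSCs and at most 0.067 in STO cells, while Dppa3 on the other side of Nanog was listed at 0 in all samples. Klf5 and Klf12 are next to each other on chromosome 14, 557 kb apart, and moved in opposite directions: Klf12 was at 23.1 and 23.9 FPKM in NSCs and 2.52 to 2.69 in STO cells. Nnmt, 49.2 kb from Zbtb16, was listed at 0 in both NSC samples and at 8.64 to 11.1 FPKM in STO cells, and Htr3a, on the other side, was at 1.85 and 1.86 FPKM in NSCs and listed at 0 in STO cells. Both neighbours of Zfp42, Triml2 and Adam26b, were listed at 0 in all 5 samples, and those of Klf4, Gm12505 and Actl7b, were at most 0.163 FPKM in any sample.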
